A study of Mus musculus with 12 samples.

Results

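The genes described here are 37 genes of the endoplasmic reticulum (ER) protein factory of mouse T helper 17 (Th17) cells. They were taken from a list by symbol and function, with no threshold on measured values, although earlier results of these data were known when the list was made. They fall into 5 roles: 3 genes of stress sensing, 11 chaperones and their partners, 5 disulfide enzymes, 7 genes of ER-associated degradation, and 11 genes of the translocon, the signal peptidase and the oligosaccharyltransferase. All 37 were found among the 29522 genes of the files, and all 37 entered the tests, which covered 13511 genes that reached a group mean of 1 FPKM (fragments per kilobase of transcript, scaled to the mapped reads of the library) somewhere. The filter removed none of the 37, and none depended on its highest group to pass: the lowest group mean was 1.06 FPKM, that of Derl3 with ILA.

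The study measured RNA in 12 libraries of Th17 cells. The cells began as naive CD4+ T cells of wild-type C57BL/6J mouse spleen and were stimulated by CD3 and CD28 under Th17 conditions. They were given vehicle, 200 uM ILA, 0.5 uM GSK805, or GSK805 and ILA together at these doses, in 3 biological replicates each. The labels do not spell out ILA, taken here to be indole-3-lactic acid, a tryptophan metabolite of gut bacteria; GSK805 inhibits RORgt, the transcription factor of the Th17 lineage. No group was left unactivated, so every comparison is between activated cells in Th17 medium. The replicates are not tied to named animals, so a p-value reflects only how these samples vary, which may be technical.

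Proteins destined for secretion or for membranes enter the ER through the Sec61 channel, lose their signal peptide, receive sugars, fold with the help of chaperones and disulfide enzymes, and are sent to the proteasome when folding fails. The unfolded protein response adjusts this capacity: the sensors IRE1, ATF6 and PERK detect misfolded protein, and the transcription factors XBP1, ATF6 and ATF4 raise the genes of folding, transport and degradation. Activated T cells that secrete cytokines carry a heavy load of such proteins.

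Libraries held 17.84 M to 23.49 M reads, as recovered from the FPKM values. The T cell markers Cd3e, Cd3d, Cd3g, Cd4 and Lck summed to 186 to 206 FPKM with vehicle and 429 to 457 with ILA. They summed to 200 to 214 with GSK805 and 368 to 406 with both. The summed Th17 markers were at 1220 to 1510, 435 to 479, 354 to 405 and 173 to 199 FPKM in the same order. Jchain, Mzb1, Sdc1 and Pax5, markers of B and plasma cells, which have a large ER, were under 1 FPKM in every library. Of the same list Cd79a stood at 1.87 ± 0.151 FPKM with vehicle and 2.35 ± 0.112 with ILA (SD, n = 3; adjusted p = 0.0771), and Ighm rose from 3.97 ± 0.179 to 5.8 ± 0.388 (adjusted p = 0.00893). Stromal markers summed to 15.3 to 17.3, 29.6 to 31.4, 18.0 to 18.3 and 29.2 to 30.3 FPKM, nearly all of it Epcam and Pecam1. The myeloid sum was 7.04 to 8.36 with vehicle, 10.8 to 12.4 with ILA, 7.09 to 7.92 with GSK805 and 10.1 to 12.7 with both. Within it Cd68 was higher with ILA (8.94 ± 0.431 against 3.75 ± 0.768), Csf1r lower (2.33 ± 0.487 against 3.46 ± 0.334, adjusted p = 0.00333), and the other 4 markers under 1 FPKM in every library. Of the markers of CD8 T and NK cells, Cd8b1 was lower with ILA (1.27 ± 0.262 against 4.06 ± 0.824), and Cd8a, Klrb1c and Eomes were under 1 FPKM in every library. The part of these shifts in the results was not tested. Erythroid markers summed to at most 0.311 FPKM except in ILA replicate 2, at 41.9; without that library the number of the 37 genes that passed against vehicle stayed at 35.

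ILA lowered this group of genes almost as a whole. Of the 37 genes, 35 were lower with ILA than with vehicle and none was higher (limma, Benjamini-Hochberg adjusted p under 0.05), where 24.0% of all tested genes were lower and 33.9% higher. The median difference of log2(FPKM + 1) was -0.68, a 1.6-fold lower level, against 0.06 over all tested genes. Ern1 and Edem1 did not pass; with libraries centred on their median gene Edem1 passed as lower too (-0.15, adjusted p = 0.00799). All differences and folds below are on this log2(FPKM + 1) scale, which understates the change of genes at low levels. In bulk RNA, fewer cells with a transcript and less of it per cell cannot be told apart.

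The size of the fall differed by role. The median difference between ILA and vehicle was -1.2 for the chaperones, -0.89 for the disulfide enzymes, -0.75 for degradation, -0.56 for the translocon and peptidase genes and -0.25 for the sensors. Summed over the 37 genes, the level was 4787 ± 111 FPKM with vehicle (SD, n = 3), 2590 ± 73.3 with ILA, 4324 ± 168 with GSK805 and 3089 ± 88.2 with both. These sums were 1.49%, 0.803%, 1.41% and 0.97% of all FPKM in their libraries. The 4 groups of sums did not overlap.

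**Figure D1:**
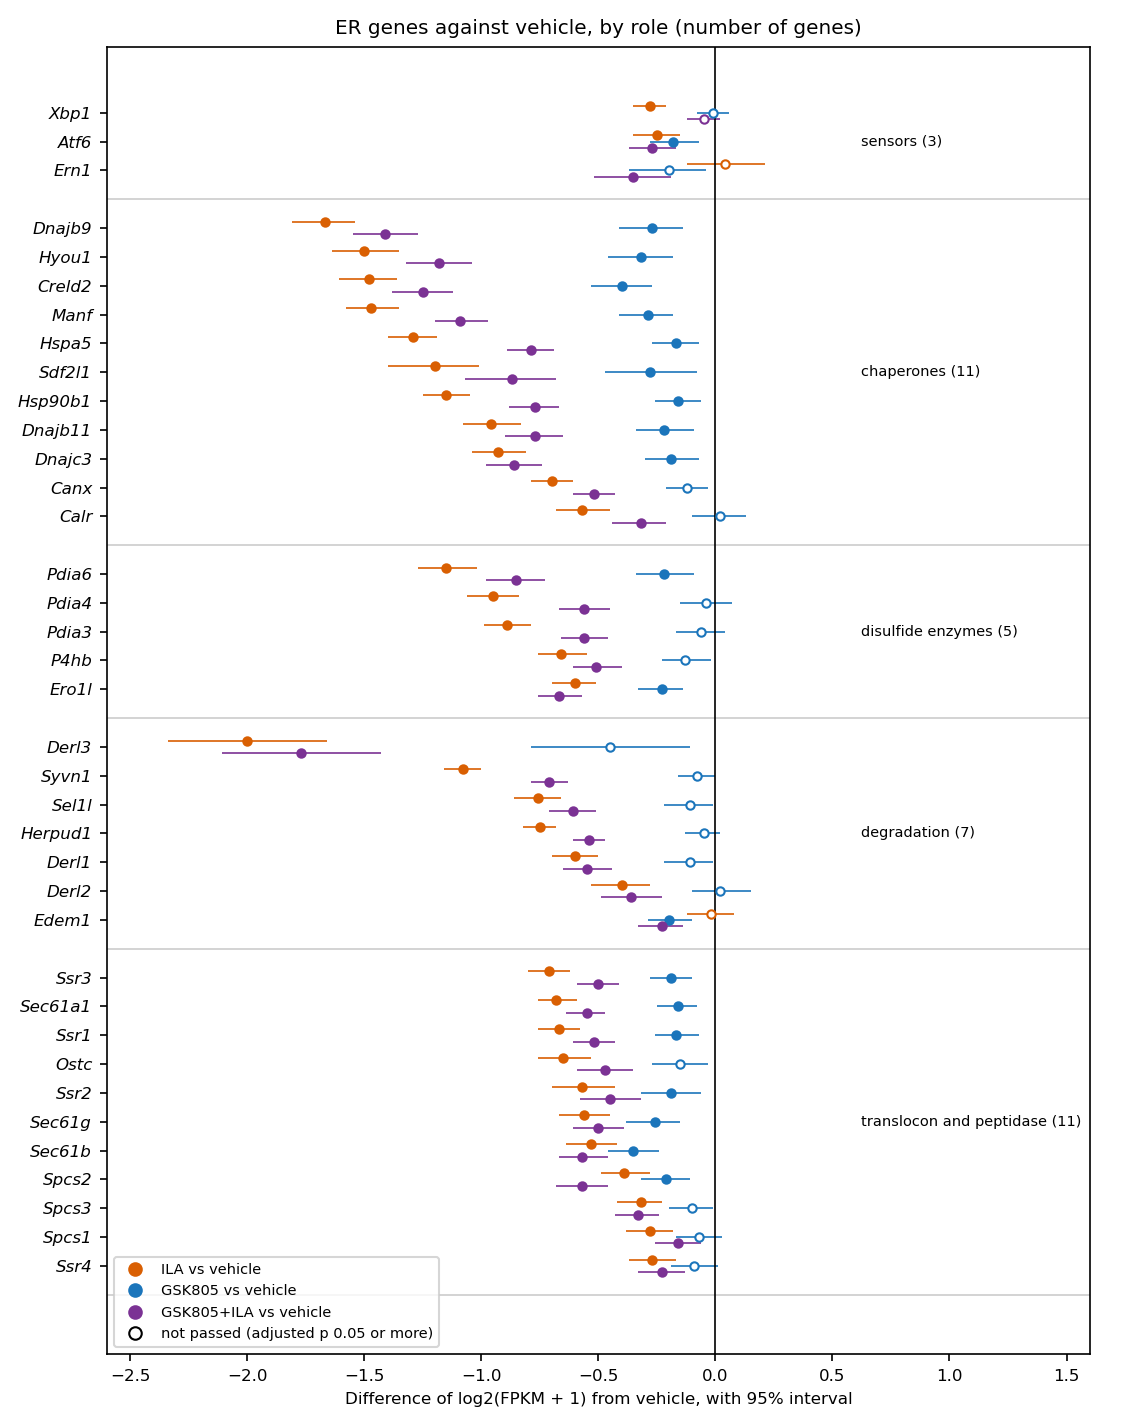
Differences of log2(FPKM + 1) from vehicle for the 37 genes by role, with 95% intervals (x axis; no units beyond log2), for ILA, GSK805 and both compounds; open circles did not pass limma at an adjusted p of 0.05. With ILA 35 genes lie to the left of 0 as filled circles, from -2.0 for Derl3 to -0.25 for Atf6, and the GSK805 circles lie between -0.45 and 0.02.

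GSK805 alone moved the same genes far less. It lowered 20 of the 37 and raised none, where 7.08% of all tested genes were lower and 15.7% higher, and the median difference was -0.17 against 0.05 over all tested genes. With both compounds 36 of the 37 were below vehicle and none above (20.3% of all tested genes lower, 31.8% higher; median -0.55). ILA and GSK805 share the vehicle libraries, so the compounds were also set against each other: 34 genes were lower with ILA than with GSK805 and 2, Ern1 and Edem1, were higher (25.4% and 27.1% of all tested genes; median -0.53). The count with GSK805 alone rested on single libraries: it fell to 12 without vehicle replicate 3 and to 12 without GSK805 replicate 1, and with median centring it rose to 31.

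For most of the genes the effects of the compounds did not add up. ILA lowered 32 of the 37 when GSK805 was present as well (17.5% of all tested genes lower), but by a median of -0.4 only. The interaction, the effect of ILA with GSK805 minus its effect without, was positive for 25 genes and negative for none (5.15% of all tested genes positive, 8.7% negative), with a median of 0.3 against -0.05 over all tested genes. Read the other way, GSK805 raised 22 of the 37 in cells that had ILA and lowered 3 (9.92% and 8.64% of all tested genes; median 0.18). Without GSK805+ILA replicate 3 the number that passed in either direction fell from 25 to 15.

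Before the values by role, promoters are shown, since the genes moved together and a known control sequence can be searched in them. RefSeq gives promoters of 250 bases before to 50 after the start for 29 of the 37 genes (build GRCm38.p6; Ero1l under its current name Ero1a). The ER stress response element (ERSE), which ATF6 and the factor NF-Y are known to bind, was searched on both strands as CCAAT and CCACG with any 9 bases between them. It was found in 9 of the 29 genes (31.0%) and in 37 of all 27025 genes of the table (0.137%). ERSE-II, searched as ATTGG, any base and CCACG, was found in 2 of the 29 (6.9%), Herpud1 and Dnajb11, and in 0.0444% of all genes; in Dnajb11 it lies just after the start. The core TGACGTGG of the unfolded protein response element was in none of the 29 and in 0.714% of all genes. The xenobiotic response element of the aryl hydrocarbon receptor, searched as TNGCGTG, was in 3 of the 29 (10.3%; Edem1, Ero1l and Sec61b) and in 5.84% of all genes. A match is a description of letters and not a measured binding site.

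The promoter of Derl3, the gene with the largest fall, is printed whole before its start (chr10:75893148-75893397, + strand), followed by the stretches around the matches of the other genes, because they show the shared letters. Each runs 5′ to 3′ on the strand of its gene, with the match in capitals; CGTGG at the left end and ATTGG at the right mark an ERSE that lies on the other strand.
Derl3: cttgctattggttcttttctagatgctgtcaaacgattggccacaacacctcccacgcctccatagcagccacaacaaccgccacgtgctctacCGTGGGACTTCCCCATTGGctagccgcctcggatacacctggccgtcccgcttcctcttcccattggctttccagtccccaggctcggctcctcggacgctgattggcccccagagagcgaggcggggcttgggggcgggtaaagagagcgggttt
Hspa5: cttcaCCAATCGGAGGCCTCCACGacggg
Hsp90b1, far match: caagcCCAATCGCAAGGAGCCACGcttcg
Hsp90b1, near match: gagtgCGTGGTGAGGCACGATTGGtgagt
Creld2: cttctCGTGGCGAGCCTCAATTGGtccac
Dnajc3: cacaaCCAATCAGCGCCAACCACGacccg
Canx: attgaCCAATCACCACGCTCCACGaagaa
Calr: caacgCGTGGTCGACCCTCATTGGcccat
Pdia6: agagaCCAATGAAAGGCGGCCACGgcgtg
Syvn1: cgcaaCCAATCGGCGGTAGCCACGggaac
Herpud1 (ERSE-II): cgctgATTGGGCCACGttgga
The Hspa5 stretch is chr2:34772020-34772048 and its match begins 65 bases before the RefSeq start; the annotation GENCODE vM21 starts the gene further upstream, so that these letters lie in its first exon. The match of Syvn1 begins 44 bases before the start (chr19:6046527-6046555), that of Creld2 126 bases (chr15:88819515-88819543), that of Derl3 156 bases (chr10:75893237-75893265), and the far match of Hsp90b1 212 bases (chr10:86705633-86705661).

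The 11 genes with an ERSE or ERSE-II match had a median difference of -1.08 between ILA and vehicle, from -2.0 to -0.57. The 18 genes with a promoter but no match had a median of -0.58, from -1.67 to 0.04. Their median interactions were 0.45 and 0.27. No test was made of this split, and it follows role. The genes with a match were chaperones, degradation genes and the disulfide enzyme Pdia6. Those without one included all the translocon and peptidase genes with a promoter and the sensing genes Ern1 and Xbp1, the roles that fell least. Match and role were therefore not separated. Among the chaperones alone, those with a match ranged from -1.48 for Creld2 to -0.57 for Calr. Dnajb9 and Sdf2l1 have no match. Sdf2l1, at -1.2, lies within that range, and Dnajb9, at -1.67, fell further than every chaperone with a match.

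**Figure D2:**
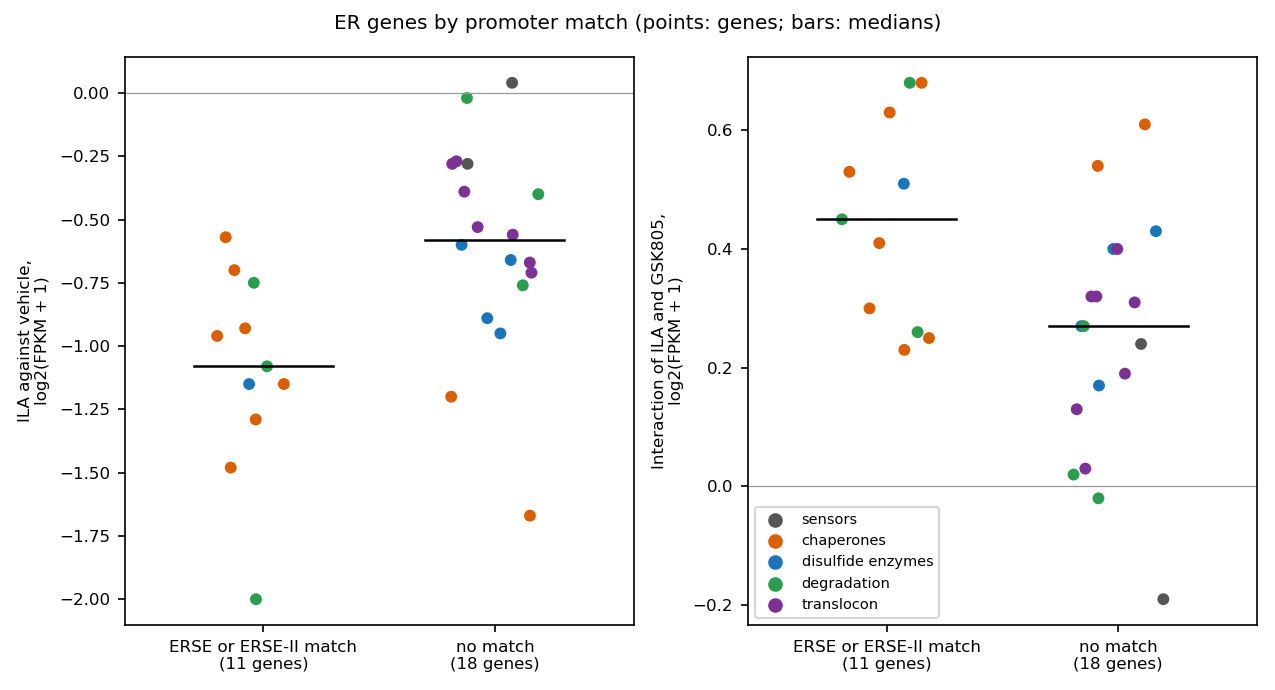
Each point is 1 gene with a RefSeq promoter, by whether an ERSE or ERSE-II match was found, coloured by role; bars are medians. The left panel gives the log2(FPKM + 1) difference of ILA from vehicle (medians -1.08 and -0.58), the right panel the interaction (medians 0.45 and 0.27), and the values of the 2 sets overlap in both.

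The sensing genes fell least: 2 of 3 were lower with ILA. Ern1 (ENSMUSG00000020715, chr11:106394650-106487852, - strand) encodes IRE1, the kinase and ribonuclease that senses unfolded protein and splices Xbp1 mRNA. Ern1 stood at 15.7, 15.1 and 14.5 FPKM with vehicle, 15.6, 14.4 and 16.8 with ILA, 13.4, 12.4 and 13.2 with GSK805, and 12.9, 11.7 and 10.4 with both. Its ILA and vehicle values overlap, and both groups with GSK805 lie below both groups without it. The difference of ILA from vehicle was 0.04 (SE 0.075, adjusted p = 0.654) and that of GSK805 alone -0.2 (adjusted p = 0.0759), while both compounds lowered it by 0.35 on the log2 scale (adjusted p = 0.00215). GSK805 lowered Ern1 in cells with ILA, by 0.39 (adjusted p = 0.00473), which makes it 1 of the 3 genes that fell in that comparison. The call that Ern1 was higher with ILA than with GSK805 (0.24, adjusted p = 0.0171) was lost without ILA replicate 3 (0.0695), without GSK805 replicate 2 (0.0638) and with libraries centred on their median gene (0.056).

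Atf6 (ENSMUSG00000026663, chr1:170704674-170867771, - strand) encodes the membrane-bound factor that is cut in the Golgi and then drives chaperone genes. It read 28.5, 27.0 and 29.4 FPKM with vehicle, 23.5, 23.7 and 23.8 with ILA, 24.2, 24.9 and 25.7 with GSK805, and 24.7, 22.1 and 23.1 with both. All 9 treated libraries lie below all 3 vehicle libraries, and the treated groups lie close to each other. Atf6 was 1.19-fold lower with ILA (-0.25, SE 0.047, adjusted p = 0.00079), 1.13-fold lower with GSK805 (adjusted p = 0.0199) and 1.2-fold lower with both (adjusted p = 0.000536), and its interaction did not pass (0.15, adjusted p = 0.143). The GSK805 call on Atf6 was lost without vehicle replicate 3 (0.079), GSK805 replicate 1 (0.0737) or GSK805 replicate 2 (0.0531).

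Xbp1 (ENSMUSG00000020484, chr11:5520659-5525893, + strand) encodes the transcription factor that IRE1 activates by splicing; values per gene do not separate its spliced mRNA from the unspliced. The libraries gave 141, 140 and 142 FPKM with vehicle, 115, 113 and 120 with ILA, 139, 142 and 139 with GSK805, and 139, 132 and 138 with both. The ILA libraries lie far below the others, and the combination lies just below vehicle without overlap. ILA lowered Xbp1 1.22-fold (-0.28, SE 0.033, adjusted p = 2.1e-05), and the combination did not pass against vehicle (-0.05, 95% interval -0.12 to 0.02, adjusted p = 0.217), though it did with median centring (-0.19, adjusted p = 0.000774). GSK805 raised it by 0.23 in cells with ILA (adjusted p = 0.000952), and the interaction was 0.24 (adjusted p = 0.00766).

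The chaperones fell most as a group: 11 of 11 were lower with ILA, 9 of 11 with GSK805 alone and 11 of 11 with both. Hspa5 (ENSMUSG00000026864, chr2:34771970-34777547, + strand) encodes BiP, the Hsp70 chaperone that also holds the sensors inactive, and was the most abundant of the 37. Its libraries read 930, 972 and 972 FPKM with vehicle, 380, 378 and 412 with ILA, 802, 863 and 890 with GSK805, and 547, 543 and 570 with both. The 4 groups do not overlap, and the combination lies between ILA and GSK805. Hspa5 was 2.45-fold lower with ILA (-1.29, SE 0.046, adjusted p = 2.96e-09) and 1.73-fold lower with both (adjusted p = 1.12e-07). Its interaction of 0.68 (SE 0.065, adjusted p = 0.000434) was the highest of the 37 beside that of Derl3, and GSK805 raised it 1.42-fold in cells with ILA (adjusted p = 6.97e-05). The small fall of Hspa5 with GSK805 alone (-0.17, adjusted p = 0.0215) turned to a rise of 0.15 after quantile normalization (adjusted p = 0.0333), and was lost without vehicle replicate 2 (0.0654), vehicle replicate 3 (0.0726) or GSK805 replicate 1 (0.0827).

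Dnajb9 (ENSMUSG00000014905, chr12:44205559-44210326, - strand) encodes ERdj4, a BiP cofactor that is a classic target of spliced XBP1. It stood at 56.7, 55.8 and 65.1 FPKM with vehicle, 18.4, 18.4 and 16.7 with ILA, 48.9, 49.1 and 47.9 with GSK805, and 20.1, 22.4 and 22.3 with both. Here the combination lies near ILA, though above every ILA library. Dnajb9 was 3.19-fold lower with ILA (-1.67, SE 0.063, adjusted p = 4.69e-09), 2.66-fold lower with both (adjusted p = 1.96e-08) and 1.21-fold lower with GSK805 (adjusted p = 0.0101). The rise of 0.26 in the combination over ILA (adjusted p = 0.0151) was lost without ILA replicate 3 (0.0521), GSK805+ILA replicate 2 (0.0515) or GSK805+ILA replicate 3 (0.0587).

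Hyou1 (ENSMUSG00000032115, chr9:44379490-44392369, + strand) encodes GRP170, which exchanges the nucleotide of BiP. It read 121, 130 and 128 FPKM with vehicle, 41.2, 44.8 and 46.7 with ILA, 92.1, 102 and 109 with GSK805, and 55.8, 52.9 and 56.7 with both. The groups keep the order of Hspa5 with no overlap. Hyou1 was 2.82-fold lower with ILA (-1.5, SE 0.064, adjusted p = 9.73e-09), 1.25-fold lower with GSK805 (adjusted p = 0.00453) and 2.27-fold lower with both (adjusted p = 6.78e-08), and its interaction was 0.64 (adjusted p = 0.00209).

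Calr (ENSMUSG00000003814, chr8:84841850-84846934, - strand) encodes calreticulin, a lectin chaperone that binds sugars on folding glycoproteins and stores calcium, and fell least of the chaperones. It gave 416, 427 and 413 FPKM with vehicle, 272, 290 and 285 with ILA, 400, 426 and 444 with GSK805, and 320, 323 and 362 with both. The GSK805 libraries spread on either side of vehicle, and the other treated groups lie below both. Calr was 1.48-fold lower with ILA (-0.57, SE 0.053, adjusted p = 3.4e-06) and 1.25-fold lower with both (adjusted p = 0.000341), a call lost after quantile normalization (-0.08, adjusted p = 0.113). With GSK805 alone it did not pass (0.02, adjusted p = 0.861), but passed as a rise of 0.27 after quantile normalization (adjusted p = 0.00105). Its interaction was 0.23 (adjusted p = 0.065), which passed in 5 alternatives, with adjusted p from 0.00422 with voom to 0.0489 without GSK805 replicate 3.

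The other chaperones lay between these. Creld2, Manf and Sdf2l1, small ER proteins induced by ER stress, were 2.8-fold, 2.77-fold and 2.3-fold lower with ILA, with means of 48.6, 43.9 and 47.5 FPKM against 138, 123 and 110 with vehicle. Hsp90b1, the ER member of the Hsp90 family, was 2.22-fold lower, the BiP cofactors Dnajb11 and Dnajc3 1.94-fold and 1.9-fold, and the membrane lectin chaperone Canx 1.63-fold. GSK805 raised 10 of the 11 chaperones in cells with ILA; Dnajc3 did not pass (0.07, adjusted p = 0.417). The interaction passed for 10 of 11, all but Calr, with a median of 0.54.

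**Figure D3:**
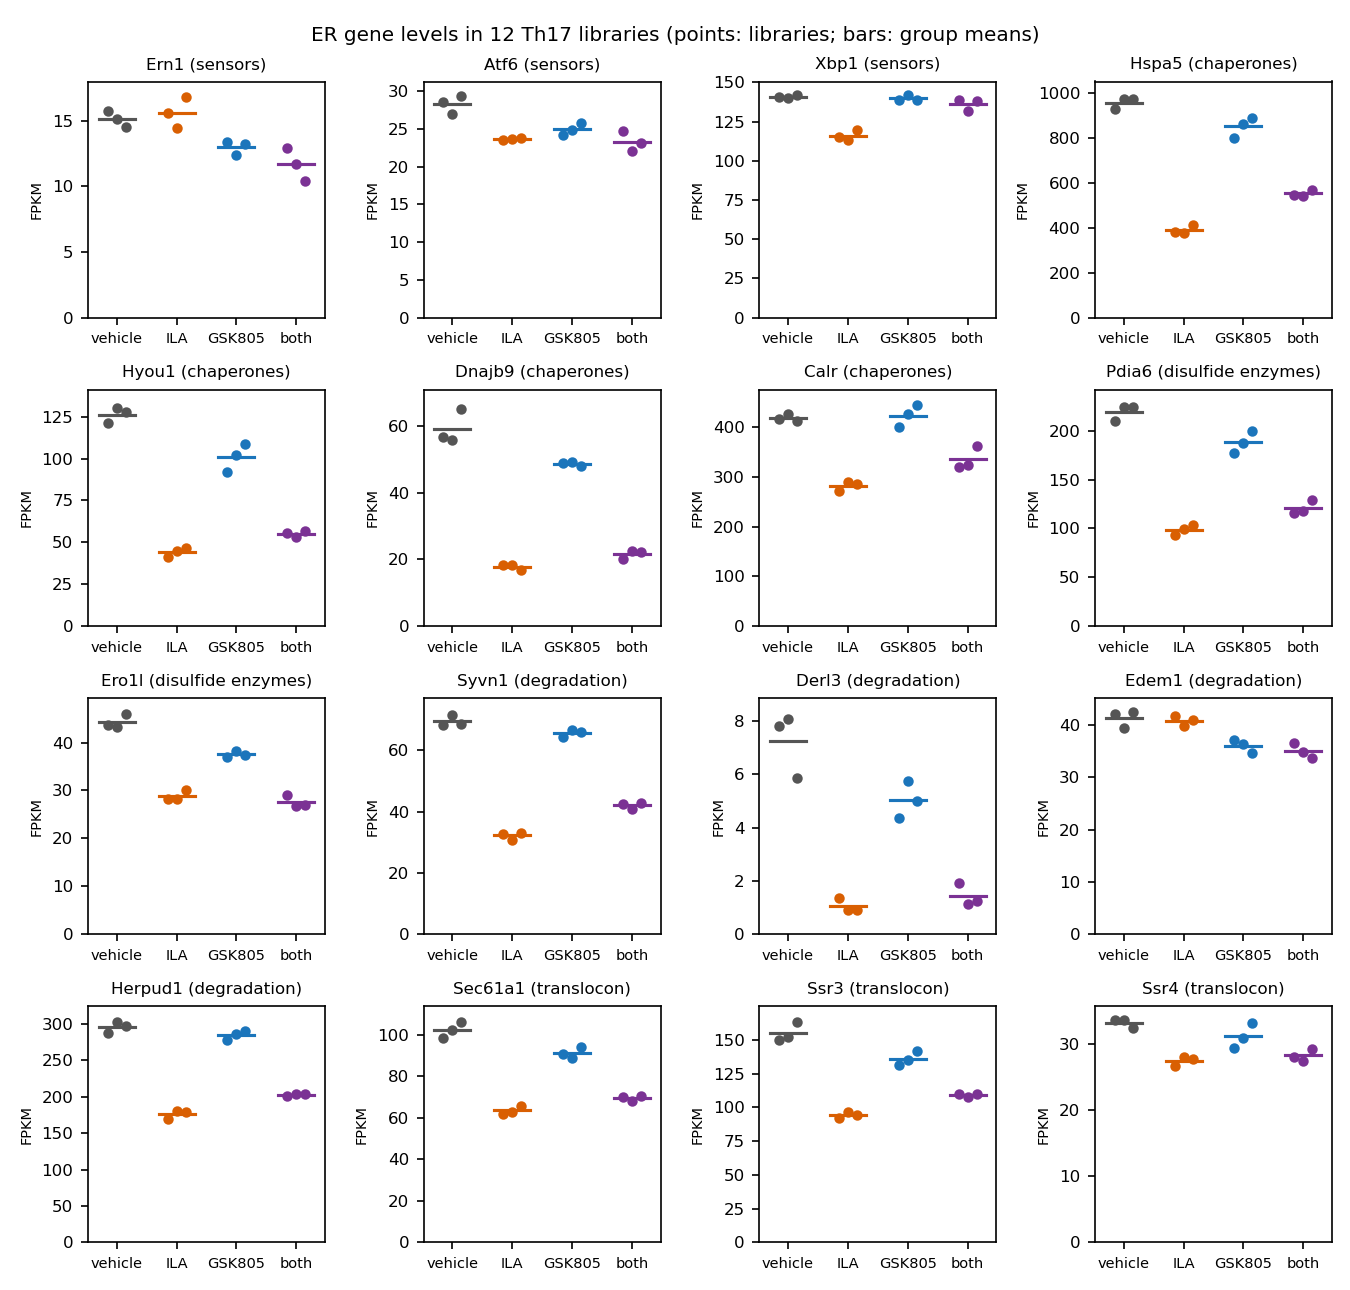
FPKM (y axes, from 0) of 16 of the genes in each of the 12 libraries (points) with group means (bars), for vehicle, ILA, GSK805 and both compounds. Hspa5 falls from 930 to 972 FPKM with vehicle to 378 to 412 with ILA and lies at 543 to 570 with both, while the ILA points of Ern1 and Edem1 overlap those of vehicle.

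All 5 disulfide enzymes fell with ILA. Pdia3 (ENSMUSG00000027248, chr2:121413775-121438687, + strand), which encodes ERp57, the oxidoreductase that works with calnexin and calreticulin, was the most abundant of them. Its libraries stood at 294, 294 and 311 FPKM with vehicle, 154, 163 and 167 with ILA, 281, 284 and 295 with GSK805, and 196, 199 and 215 with both. GSK805 overlaps vehicle, and the combination lies above ILA without overlap. Pdia3 was 1.85-fold lower with ILA (-0.89, SE 0.046, adjusted p = 3.5e-08) and 1.47-fold lower with both (adjusted p = 1.68e-06), did not pass with GSK805 alone (-0.06, adjusted p = 0.35), and had an interaction of 0.4 (adjusted p = 0.00389).

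Pdia6 (ENSMUSG00000020571, chr12:17266545-17284770, + strand) encodes P5, a disulfide isomerase that also trims the signal of IRE1, and had the largest fall and interaction of the 5. It read 210, 224 and 224 FPKM with vehicle, 93.0, 99.2 and 103 with ILA, 177, 188 and 200 with GSK805, and 116, 118 and 129 with both. No 2 of the 4 groups overlap. Pdia6 was 2.21-fold lower with ILA (-1.15, SE 0.057, adjusted p = 2.81e-08), 1.16-fold lower with GSK805 (adjusted p = 0.0194) and 1.81-fold lower with both (adjusted p = 3.32e-07), with an interaction of 0.51 (adjusted p = 0.00328). The call on GSK805 alone was lost in 6 of the alternatives, with adjusted p from 0.0511 with no filter to 0.617 after quantile normalization.

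Pdia4 (ENSMUSG00000025823, chr6:47796141-47813430, - strand), which encodes ERp72, gave 91.0, 92.1 and 96.0 FPKM with vehicle, 44.5, 47.6 and 51.6 with ILA, 87.7, 89.7 and 93.9 with GSK805, and 62.5, 64.4 and 62.0 with both. The GSK805 values overlap vehicle, and the combination lies clear of every other group. It was 1.93-fold lower with ILA (-0.95, adjusted p = 4.17e-08) and did not pass with GSK805 alone (-0.04, adjusted p = 0.604), while GSK805 raised it 1.31-fold in cells with ILA (adjusted p = 0.000491). P4hb, the classic protein disulfide isomerase, was 1.57-fold lower with ILA, at 147 ± 8.73 against 233 ± 9.38 FPKM (SD, n = 3; adjusted p = 3.86e-07).

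Ero1l (ENSMUSG00000021831, chr14:45283087-45318771, - strand), the oxidase that passes electrons from these enzymes to oxygen, differed from them. Its libraries read 43.7, 43.2 and 46.0 FPKM with vehicle, 28.2, 28.2 and 30.0 with ILA, 36.9, 38.3 and 37.5 with GSK805, and 29.0, 26.8 and 27.0 with both. ILA and the combination overlap, and both lie below GSK805. It was 1.52-fold lower with ILA (-0.6, SE 0.042, adjusted p = 3.51e-07), 1.18-fold lower with GSK805 (adjusted p = 0.00286) and 1.59-fold lower with both (adjusted p = 2.26e-07). The combination did not pass against ILA (-0.06, 95% interval -0.15 to 0.03, adjusted p = 0.361), nor did the interaction (0.17, adjusted p = 0.0805), except with median centring (0.25, adjusted p = 0.0223).

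Degradation genes ranged from the largest fall of the 37 to no detected change. Herpud1 (ENSMUSG00000031770, chr8:94386438-94395377, + strand), a stress-induced membrane protein of the degradation complex, was the most abundant, at 288, 302 and 297 FPKM with vehicle, 169, 180 and 179 with ILA, 278, 286 and 290 with GSK805, and 201, 203 and 204 with both. The GSK805 and vehicle values overlap, and the combination lies above ILA. Herpud1 was 1.68-fold lower with ILA (-0.75, SE 0.033, adjusted p = 1.09e-08) and 1.45-fold lower with both (adjusted p = 1.42e-07), with an interaction of 0.26 (adjusted p = 0.00535).

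Derl3 (ENSMUSG00000009092, chr10:75893413-75895941, + strand) encodes a Derlin, a membrane protein that helps move misfolded proteins out of the ER. Its libraries stood at 7.83, 8.09 and 5.86 FPKM with vehicle, 1.37, 0.907 and 0.9 with ILA, 4.35, 5.75 and 4.99 with GSK805, and 1.94, 1.12 and 1.24 with both. Every library with ILA lies below every library without it. Derl3 was 4.0-fold lower with ILA (-2.0, SE 0.15, adjusted p = 7.66e-07) and 3.41-fold lower with both (adjusted p = 2.96e-06). Its standard errors are the widest of the 37, and neither GSK805 alone (-0.45, adjusted p = 0.0585) nor the interaction (0.68, SE 0.22, adjusted p = 0.0618) passed. Both passed without vehicle replicate 3 (adjusted p = 0.0349 and 0.0417), with a filter at 5 FPKM and under both other scalings. The relatives Derl1 and Derl2 were 1.52-fold and 1.32-fold lower with ILA.

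Syvn1 (ENSMUSG00000024807, chr19:6046576-6053712, + strand) encodes HRD1, the ubiquitin ligase of the degradation complex, and Sel1l its scaffold. Syvn1 read 68.3, 71.4 and 68.7 FPKM with vehicle, 32.8, 30.9 and 33.1 with ILA, 64.3, 66.5 and 66.1 with GSK805, and 42.4, 41.0 and 42.8 with both. GSK805 lies just under vehicle, and the combination well above ILA. Syvn1 was 2.12-fold lower with ILA (-1.08, SE 0.036, adjusted p = 2.32e-09), did not pass with GSK805 (-0.08, adjusted p = 0.141), and rose 1.29-fold with GSK805 in cells with ILA (adjusted p = 9.18e-05; interaction 0.45, adjusted p = 0.000835). With median centring Syvn1 and Herpud1 passed as lower with GSK805 alone (-0.16 and -0.13, adjusted p = 0.0165 and 0.0258). Sel1l was 1.7-fold lower with ILA, at 22.3 ± 1.01 against 38.5 ± 2.1 FPKM (SD, n = 3; adjusted p = 1.09e-07).

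Edem1 (ENSMUSG00000030104, chr6:108828641-108859356, + strand) encodes a lectin that marks misfolded glycoproteins for export, and it was lower wherever GSK805 was present. It gave 42.2, 39.5 and 42.6 FPKM with vehicle, 41.8, 39.9 and 40.9 with ILA, 37.2, 36.3 and 34.7 with GSK805, and 36.6, 34.9 and 33.7 with both. The libraries with GSK805 lie below all libraries without it, as for Ern1. The difference of ILA from vehicle was -0.02 (95% interval -0.12 to 0.08, adjusted p = 0.731), while GSK805 lowered Edem1 1.15-fold alone (-0.2, adjusted p = 0.0086) and 1.16-fold in cells with ILA (-0.22, adjusted p = 0.00648).

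The translocon and peptidase genes all fell with ILA, by less than most chaperones and within a narrow range, from -0.71 to -0.27. Ssr3 (ENSMUSG00000027828, chr3:65379655-65392623, - strand), a subunit of the TRAP complex beside the channel, was the most abundant, at 150, 152 and 163 FPKM with vehicle, 92.4, 96.7 and 94.3 with ILA, 131, 135 and 142 with GSK805, and 110, 108 and 110 with both. The 4 groups do not overlap. Ssr3 was 1.64-fold lower with ILA (-0.71, SE 0.04, adjusted p = 6.45e-08), 1.14-fold lower with GSK805 (adjusted p = 0.00638) and 1.42-fold lower with both (adjusted p = 1.38e-06), with an interaction of 0.4 (adjusted p = 0.00209).

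Sec61a1 (ENSMUSG00000030082, chr6:88503579-88518905, - strand) encodes the pore of the channel. Its libraries read 98.3, 102 and 106 FPKM with vehicle, 62.0, 62.7 and 65.7 with ILA, 90.7, 88.6 and 93.9 with GSK805, and 69.9, 67.8 and 70.4 with both. The groups are again separate and in the same order. Sec61a1 was 1.6-fold lower with ILA (-0.68, SE 0.038, adjusted p = 6.45e-08) and 1.47-fold lower with both (adjusted p = 4.5e-07), with an interaction of 0.29 (adjusted p = 0.00698). The rise of 0.13 in the combination over ILA (adjusted p = 0.041) was lost in 9 alternatives, 5 of which left out 1 library (adjusted p up to 0.128). The other channel subunits Sec61b and Sec61g were 1.44-fold and 1.47-fold lower with ILA, and Sec61b had the largest fall of the 11 with GSK805 alone (1.28-fold, -0.35, adjusted p = 0.00056).

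Ssr4 (ENSMUSG00000002014, chrX:73787028-73790830, + strand), another TRAP subunit, fell least of the 11. It stood at 33.6, 33.7 and 32.5 FPKM with vehicle, 26.7, 28.0 and 27.7 with ILA, 29.4, 31.0 and 33.2 with GSK805, and 28.1, 27.5 and 29.3 with both. GSK805 overlaps vehicle, and the combination overlaps ILA. Ssr4 was 1.2-fold lower with ILA (-0.27, SE 0.046, adjusted p = 0.00038); its fall in the combination against GSK805 (-0.13, adjusted p = 0.0376) was lost without GSK805 replicate 2 (0.0787) or 3 (0.145), without GSK805+ILA replicate 1 (0.0904) or 2 (0.123) and in 5 other alternatives. Ssr1 and Ssr2 were 1.59-fold and 1.48-fold lower with ILA, and Ostc, a subunit of the oligosaccharyltransferase that adds sugars at the channel, 1.57-fold lower.

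The signal peptidase subunits Spcs1, Spcs2 and Spcs3 were 1.21-fold, 1.31-fold and 1.25-fold lower with ILA, and none had an interaction that passed. Spcs2 fell further with the second compound, from 39.8 ± 2.53 FPKM with vehicle (SD, n = 3) to 30.2 ± 1.1 with ILA and 26.5 ± 0.77 with both. With Ern1 and Edem1 it was 1 of the 3 genes that GSK805 lowered in cells with ILA (-0.18, adjusted p = 0.024), a call lost without ILA replicate 1 (0.0897), GSK805+ILA replicate 1 (0.0511) or GSK805+ILA replicate 3 (0.0887) and with no filter (0.0595).

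**Figure D4:**
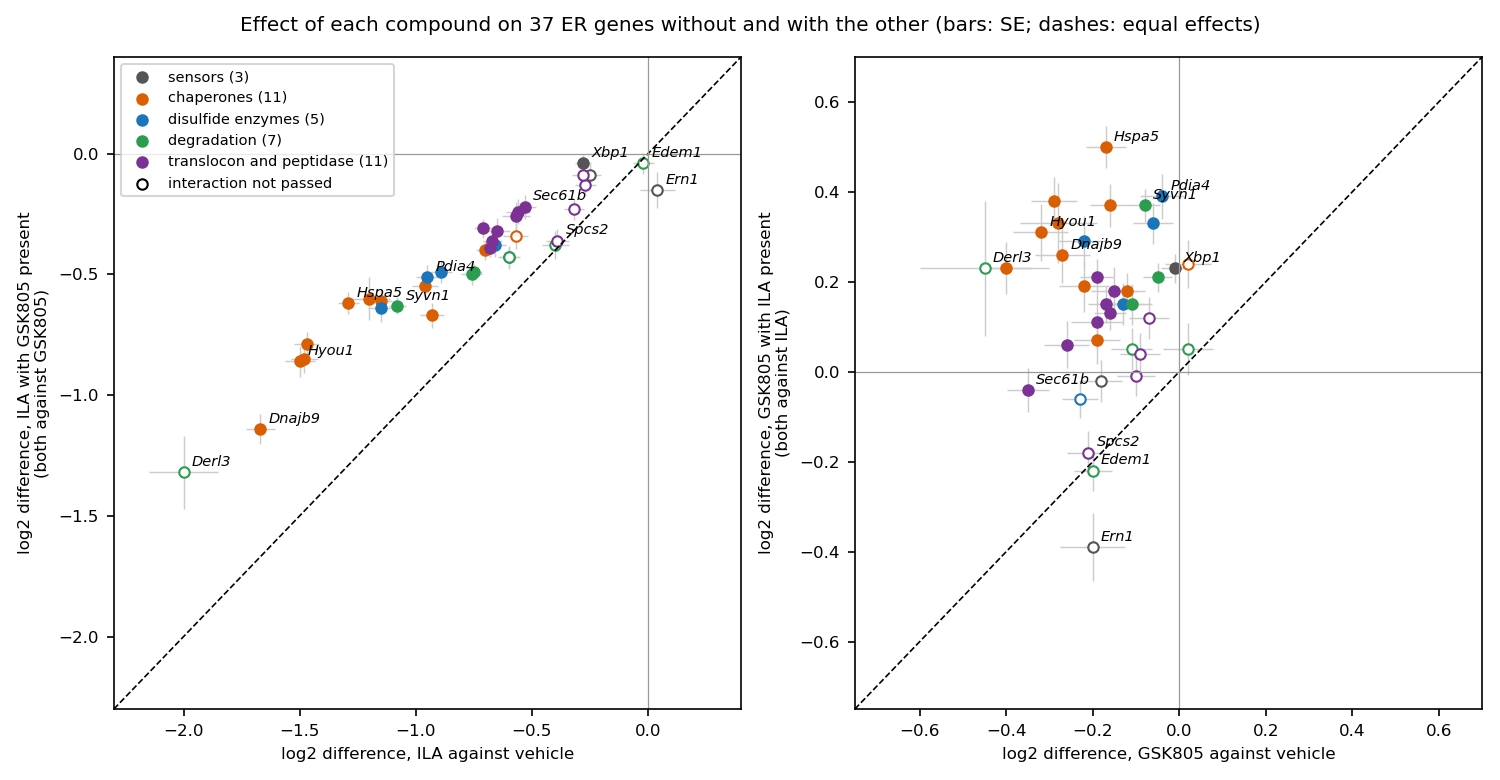
Each point is 1 of the 37 genes, coloured by role, with SE bars; filled points passed the interaction test. Left, the log2(FPKM + 1) effect of ILA without GSK805 (x) and with it (y); right, the effect of GSK805 without ILA (x) and with it (y); on the dashed line the effects would be equal, and the 25 genes with a positive interaction lie above it.

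The effect of GSK805 changed direction for some genes, which were counted after their values were seen. Of the 37 genes, 12 were lower with GSK805 than with vehicle and higher with both compounds than with ILA alone, 2 comparisons that share no libraries: Hspa5, Hsp90b1, Hyou1, Dnajb9, Dnajb11, Manf, Sdf2l1, Creld2, Pdia6, Sec61a1, Ssr1 and Ssr3. Over all tested genes this held for 54 of 13511 (0.4%). The number among the 37 rests on small falls with GSK805 alone and on small rises with GSK805 beside ILA. It was 6 without vehicle replicate 3, 7 without GSK805 replicate 1 and 6 without GSK805+ILA replicate 3. With no filter it was 6, and after quantile normalization 7. Of the 12 genes, only Hyou1, Manf and Ssr3 kept both calls in every alternative. The fall with GSK805 alone was lost in at least 1 for Hspa5, Hsp90b1, Dnajb11, Sdf2l1, Pdia6 and Ssr1. The rise over ILA was lost in at least 1 for Creld2, Dnajb9, Dnajb11, Sdf2l1, Sec61a1 and Ssr1. Of the interactions themselves, 21 of the 25 passed in every alternative. Those of Dnajc3, P4hb, Sel1l and Ssr2 were lost in at least 1.

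The rest of the pathway had a smaller median difference. Of 71 further tested genes of the ER list, 53 were lower with ILA and 8 higher, with a median of -0.29, where 24.0% of all tested genes were lower and 33.9% higher with a median of 0.06. In signalling, Ppp1r15a, which encodes GADD34, the phosphatase subunit that restores translation after stress, read 133, 152 and 147 FPKM with vehicle and 72.6, 73.7 and 65.0 with ILA (-1.02, adjusted p = 1.14e-07). Eif2ak3, the gene of the sensor PERK, was lower too (-0.54, adjusted p = 1.64e-05), and Wfs1 was higher (0.39, adjusted p = 0.00684). Rpn1 and Magt1, subunits of the oligosaccharyltransferase, and Srprb, of the receptor that docks ribosomes, were lower by -1.0, -0.81 and -0.75 on the log2 scale, and Tram2 was higher by 0.85, from 0.527 to 1.76 FPKM. Among folding genes the oxidase Ero1lb was lower (-1.0) and the chaperone Cnpy3 higher (0.38). Of other degradation genes Ube2g2, a ubiquitin-conjugating enzyme, and Selenos were lower (-0.93 and -0.9), while Os9, a lectin that delivers glycoproteins to SEL1L, was higher (0.54, adjusted p = 1.14e-05), at 59.3, 63.6 and 56.2 FPKM with ILA against 41.7, 40.0 and 40.5 with vehicle.

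In the other comparisons 11 of the 71 were lower and 7 higher with GSK805 alone (7.08% and 15.7% of all tested genes), and 40 lower and 9 higher with both compounds (20.3% and 31.8%). The interaction was positive for 21 and negative for 1, Tram2 (5.15% and 8.7% of all tested genes). Ppp1r15a had an interaction of 0.55 (adjusted p = 0.00334), Ddit3, the gene of the stress factor CHOP, 0.3 (adjusted p = 0.03), and Atf4, the transcription factor downstream of PERK, 0.18 (adjusted p = 0.0231). GSK805 raised 21 of the 71 in cells with ILA (9.92% of all tested genes), among them Magt1, Ost4 and Srpr, and lowered 1, Trib3.

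Some values carry limits of annotation. Sec61a1 shares 392 bases with the antisense gene Gm44170, which reached 315 FPKM, and Sec61g 420 bases with Gm10177, which reached 37.3 FPKM; Sec61b, Derl1 and Spcs2 have near-identical copies at no more than 4.94 FPKM. Hsp90b1, Manf, Dnajb9, Pdia3, Pdia6, Syvn1, Derl2, Sec61a1, Ssr2, Spcs1 and Spcs3 overlap genes on the opposite strand, and the sources used here do not say whether counting kept the strand. The positions are those of GENCODE vM21 on GRCm38 (mm10).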

How the data were processed

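RNA of 12 libraries was compared in 4 groups of 3. The unit is FPKM, computed by the authors from reads that were, per the submitters' processing notes, checked with FastQC 0.11.2 and mapped to mm10 by Bowtie. How genes were counted, with which annotation, trimming or strand setting, is not given in the sources used. With GENCODE vM21 exon lengths, 98.99% to 99.08% of values per library corresponded to whole reads within a tolerance of 0.1.

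From these, log2(FPKM + 1) was taken and the 13511 genes with a group mean of 1 FPKM or more were kept. In limma 3.58.1 (R 4.3.3; trend and robust moderation) all 12 libraries were fitted together, with a mean for each group. The pairwise contrasts and the interaction were tested, with Benjamini-Hochberg adjustment over all genes of each, called below 0.05. The fit was tested on simulated data for ILA against vehicle (11987 genes), of which only a small part was changed. Genes changed 1.25-fold were found in 2.2% of cases, those changed 1.5-fold in 39.5%, 2-fold in 81.8% and 4-fold in 100%. Unchanged genes made up 7.2% of the calls, and 0 calls were made where none changed. In the real data 7818 of the 13511 genes were called with ILA. With so few changed genes the adjustment is stricter in the simulation, so its shares do not give the power of the real comparisons. The 37 genes, the lists and the rules were chosen with earlier results of these data known. Values in every library are given for the 3 sensing genes and, in each other role, for the most abundant gene, the 2 with the lowest and the 1 with the highest difference of ILA from vehicle, and the 1 with the largest interaction. Of the wider list, called genes with the largest rises and falls in each sub-list may be named. Alternatives were another pseudocount, other filters, quantile normalization, median centring, plain limma moderation, a replicate block, only the groups compared, voom on recovered reads, and leaving out each library in turn. Promoters came from RefSeq, and near-identical copies were sought with blastn. Protein sequences were not used here. Python 3.11.15, pandas 2.3.3 and matplotlib 3.10.9 served for tables and plots. One marker gene is not reported here.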

Additional observations from a re-analysis of the deposited data

Results flagged for a closer look

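For 25 of the 37 genes the effect of ILA differed between cells with and without GSK805 by a test of the difference itself, the limma interaction term over all tested genes (adjusted p under 0.05). In log2(FPKM + 1), the effect of ILA was less negative with GSK805 by 0.68 for Hspa5, 0.67 for Manf, 0.64 for Hyou1, 0.63 for Creld2, 0.61 for Sdf2l1, 0.54 for Dnajb9, 0.53 for Hsp90b1, 0.41 for Dnajb11, 0.3 for Canx and 0.25 for Dnajc3 among the chaperones. It was less negative by 0.51 for Pdia6, 0.43 for Pdia4, 0.4 for Pdia3 and 0.27 for P4hb among the disulfide enzymes, and by 0.45 for Syvn1, 0.27 for Sel1l and 0.26 for Herpud1 among the degradation genes. For the channel and its neighbours the values were 0.4 for Ssr3, 0.33 for Ostc, 0.32 for Sec61g, 0.32 for Ssr1, 0.31 for Sec61b, 0.3 for Ssr2 and 0.29 for Sec61a1. Among the sensing genes Xbp1 stood out with 0.24.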

How the results depend on the processing

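The 35 calls with ILA were kept in every alternative run, as were 35 of the 36 calls of both compounds against vehicle, where Calr was lost; of the 20 calls with GSK805 alone 11 were kept. Of the values of single genes under the alternatives, 3833 kept their direction and side of the threshold, 159 lost the call, 52 gained one, and 26 changed sign, of which 1 was called: Hspa5 with GSK805 alone, at 0.15 after quantile normalization against -0.17. The other 25 passed on neither side. With GSK805 alone they were, after quantile normalization, Herpud1 at 0.03, Pdia3 at 0.03, P4hb at 0.02, Xbp1 at 0.04 and Derl2 at -0.04, and with median centring Calr at -0.06 and Derl2 at -0.05. Median centring also turned Ern1 with ILA to -0.09 and the interaction of Edem1 to 0.06. Leaving out 1 library gave -0.02 to 0.06 for Calr and -0.01 to 0.06 for Derl2 with GSK805 alone, -0.01 to 0.1 for Ern1 and -0.05 to 0.0 for Edem1 with ILA, -0.06 to 0.01 for Atf6, -0.07 to 0.02 for Sec61b and -0.03 to 0.01 for Spcs3 in both against ILA, and interactions of -0.02 to 0.07 for Derl2, -0.05 to 0.01 for Edem1 and -0.01 to 0.08 for Spcs2. The same normalization gave 2 genes higher and 18 lower with GSK805 alone. Median centring gave 31 genes called there against 20. With no filter 1067 genes had an interaction against 1871, over more genes tested. The genes lower with GSK805 and higher with GSK805 beside ILA numbered 6 with no filter, 7 after quantile normalization and 7 with only the groups compared, against 12; over all genes 29, 148, 84, 32 and 108 with no filter, median centring, the replicate block, only the groups compared and voom, against 54. Leaving out 1 library gave 12 to 20 calls with GSK805 alone, 15 to 21 for both compounds against ILA, 21 to 26 interactions, and 6 to 12 genes with the change of direction (32 to 61 over all genes); over all genes it gave 2107 to 3009, 1604 to 2165 and 1201 to 1974 calls. The 1604 and 1201 came without GSK805+ILA replicate 3, and interactions were 1206 without GSK805 replicate 1 and 1232 without vehicle replicate 3. The change of direction over all genes held for 33 without vehicle replicate 3 and 32 without GSK805 replicate 1. The cause was not tested.

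Of all calls with ILA 58.6% were higher, against 46.3% after quantile normalization and 40.9% with median centring; the shares were 68.9%, 55.9% and 40.3% with GSK805, 61.1%, 47.8% and 40.2% with both, 55.7%, 46.8% and 41.6% for both against GSK805, and 37.2%, 46.0% and 63.2% for the interaction. Median centring moved the median of all genes with ILA from 0.06 to -0.07, and the median of the 37 from -0.68 to -0.81. Same-numbered libraries of different groups did not deviate together (correlations from -0.082 to 0.078 over 18 pairs, 0 above 0.1; 6 of 12 libraries correlated best with their own number), so the numbers were not taken as pairs. With the replicate block 35, 21, 36, 32, 24 and 36 of the 37 genes were called in the pairwise comparisons, and 26 interactions. The interaction was not run with only the groups compared. Depth limits the lowest gene most, Derl3.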
